A study of Mus musculus with 12 samples.

Results

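Transthyretin (Ttr) and 8 further genes that carry, move, activate, inactivate or read thyroid hormone were followed in the lateral ventricle choroid plexus (LV ChP) of adult mice at 9 p.m., in the dark phase, and at 9 a.m., in the light phase. The 9 genes were taken by symbol from the FPKM table (fragments scaled to transcript length and to library size, so that levels of genes can be set side by side), which held 24327 usable genes. All 9 symbols were found in the table, 8 were above 0 in at least 1 library, and 6 had a mean FPKM above 1 and could be tested. The mice were 60 days old by their labels, male, and heterozygous for both a Foxj1:Cre and a floxed EGFP-L10a transgene, so that Cre made in Foxj1-expressing cells tagged ribosomal protein RPL10A with EGFP. All 4 groups shared this genotype (FoxJ1:cre x bacTRAP (EGFP:L10a) in the labels), and none carried a further treatment. Translating ribosome affinity purification (TRAP) pulled the tagged ribosomes down and gave the RPL10A-associated RNA. The supernatant held the RNA that the pulldown left behind, from epithelial and other cells alike. There were 3 libraries of TRAP RNA at 9 p.m., 3 of TRAP RNA at 9 a.m., 3 of supernatant RNA at 9 p.m. and 3 of supernatant RNA at 9 a.m., each from tissue of 3 pooled mice. A TRAP library and the supernatant library that carried its number and time in the labels were taken to come from 1 pool. Replicate libraries were therefore separate pools of animals.

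Thyroid hormone travels in blood and cerebrospinal fluid (CSF) largely bound to carrier proteins, and in the CSF the main carrier is transthyretin, which the choroid plexus epithelium makes and secretes. Thyroxine (T4) and triiodothyronine (T3) cross membranes through transporters such as OATP1C1 (Slco1c1) and MCT10 (Slc16a10). Type 2 deiodinase (Dio2) turns T4 into the more active T3, and type 3 deiodinase (Dio3) inactivates both. In the nucleus T3 binds receptors encoded by Thra and Thrb, which sit on DNA paired with a retinoid X receptor such as Rxra. Without hormone the pair recruits corepressors such as Ncor1.

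The tissue label held in the markers: all 13 choroid plexus epithelial markers were above 0 in all 12 libraries, with a summed level of 17327 to 24559 FPKM. The table gave no read counts, so absolute depth is unknown. Steps between the lowest values, read after the data were seen, put the deepest library at 4.20 times the shallowest. This is an estimate: 93.9% of library pairs lay within 0.1 of it on the log2 scale. The pairwise steps added up in 87.3% of sets of 3 libraries. By this estimate the shallowest was TRAP 9 a.m. replicate 3, called shallow below. In it 107 of 2940 abundant genes were listed at 0, against 0 to 53 in the other 11 libraries. Rows for microRNAs and snoRNAs took 31.9 to 75.4% of all FPKM, so ranks and shares below leave these 1271 rows out. Fibroblast and stroma markers summed to 5.97 to 33.3 FPKM in TRAP libraries and to 89.3 to 311 FPKM in supernatant libraries. The fractions were split from the same tissue, so this contrast sets pulled-down RNA against the RNA left behind. For levels that differ between pools, fewer cells of a type and less RNA per cell cannot be told apart in bulk RNA.

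Ttr had the highest FPKM of the 23056 rows outside small RNAs in all 12 libraries, and was 1.41 to 2.98 times the next one. That next one was Enpp2, which encodes the secreted enzyme autotaxin, in every library but TRAP 9 a.m. replicate 3, where it was the ribosomal RNA row Rn45s. The gene lies on chromosome 18 at 20665280 to 20674321 on the + strand (GRCm38). Its levels were 51514, 48953 and 32933 FPKM in TRAP 9 p.m. libraries and 20922, 31302 and 29741 FPKM in TRAP 9 a.m. libraries. The lowest 9 p.m. library lay just above the highest 9 a.m. library, so the TRAP groups did not overlap. In the supernatant the levels were 30323, 23434 and 26441 FPKM at 9 p.m. and 37447, 25293 and 21463 FPKM at 9 a.m., and these groups overlapped.

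**Figure D1:**
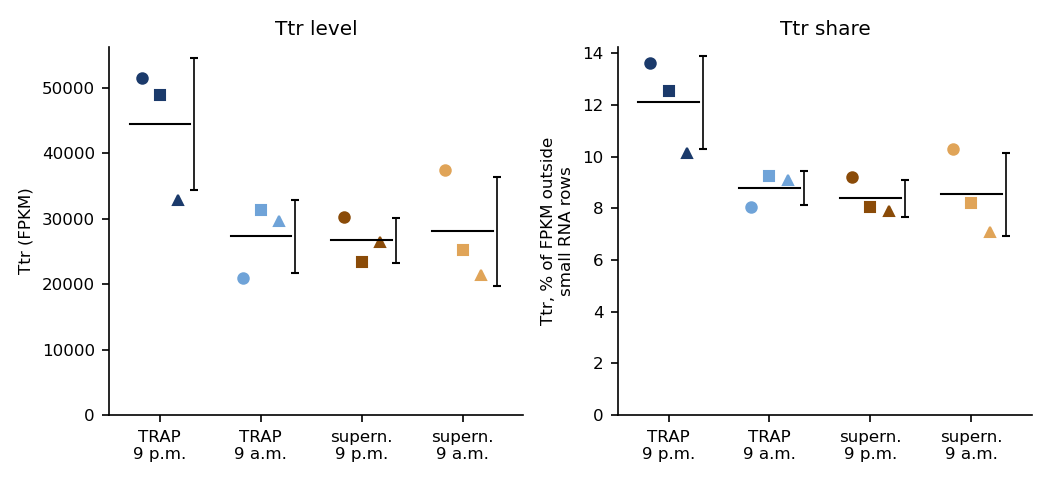
Ttr level in FPKM (left) and as a percentage of the FPKM outside small RNA rows (right) in each of the 12 libraries, by group. Circles, squares and triangles are replicates 1, 2 and 3, horizontal lines are means and bars are ± 1 SD (n = 3). The 3 TRAP 9 p.m. libraries lie at 32933 to 51514 FPKM, above all 3 TRAP 9 a.m. libraries in both panels.

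RPL10A-associated Ttr averaged 44467 ± 10070.2 FPKM at 9 p.m. and 27322 ± 5597 FPKM at 9 a.m. (SD, n = 3 each), a ratio of 1.63. An exact two-sided permutation test of this difference gave p = 0.1, which is the smallest p that 3 against 3 libraries allow. In limma across all 10563 genes tested the log2 fold change was 0.70 ± 0.46 (SE; 95% CI -0.32 to 1.71; adjusted p = 0.941). The test across all genes therefore did not pass for Ttr. Among all genes tested, 5.7% had TRAP groups that did not overlap with 9 p.m. the higher, and the median over all genes was 0.16 on the log2 scale. Without the shallow TRAP 9 a.m. replicate 3 the difference was 18355 FPKM (exact permutation p = 0.2), against 17145 FPKM with it.

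In the supernatant Ttr averaged 26732 ± 3454 FPKM at 9 p.m. and 28068 ± 8345 FPKM at 9 a.m. (SD, n = 3 each). The log2 fold change was -0.04 ± 0.38 (SE; 95% CI -0.88 to 0.80; adjusted p = 0.999), and the exact permutation p was 0.9. The interval still holds changes of a size like that fitted in TRAP RNA. The time change in TRAP RNA minus that in supernatant RNA was 0.74 on the log2 scale (95% CI -0.11 to 1.579). Its p by limma was 0.083 before and 0.988 after adjustment over 11156 genes. A time change particular to the RPL10A-associated fraction was thus not shown by this test.

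Between fractions, Ttr averaged 44467 FPKM in TRAP and 26732 FPKM in supernatant at 9 p.m., with no overlap (log2 fold change 0.71, 95% CI -0.27 to 1.70, adjusted p = 0.818; exact permutation p = 0.1). Of all genes tested, 4.9% were higher in TRAP with no overlap at 9 p.m. At 9 a.m. the means were 27322 FPKM in TRAP and 28068 FPKM in supernatant, and the groups overlapped (log2 fold change -0.02, adjusted p = 0.996). Over both times TRAP averaged 35894 ± 11886 FPKM and supernatant 27400 ± 5759 FPKM (SD, n = 6 each; exact permutation p within times = 0.145). Upper quartile scaling took that p to 0.045, with a difference of 9906.4. Neither p used the pairing of TRAP and supernatant libraries by pool. For the unscaled level an exact permutation of signs within pools gave p = 0.25. Quantile normalization, which gives each rank the same value in every library, turned the sign of the Ttr log2 fold change to -0.29 at 9 p.m. and -0.42 over both times. It was run with small RNA rows included, and Ttr ranked first outside them in all 12 libraries. The Ttr value it gave therefore depended only on how many small RNA rows ranked above Ttr. This turn of sign thus cannot show a direction for Ttr itself.

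As a share of the FPKM of genes above 1 outside small RNAs, Ttr made up 12.1 ± 1.79% of TRAP RNA at 9 p.m. and 8.78 ± 0.658% at 9 a.m. (SD, n = 3 each; exact permutation p = 0.1). Its share was 8.39 ± 0.722% of supernatant RNA at 9 p.m. and 8.53 ± 1.62% at 9 a.m. The TRAP 9 p.m. libraries, at 13.6, 12.5 and 10.1%, did not overlap the TRAP 9 a.m. libraries, at 8.03, 9.24 and 9.08%. With small RNA rows counted in, the shares were 4.79% in TRAP 9 p.m. and 2.88% in TRAP 9 a.m. libraries, and p was 0.2. Per FPKM of the 13 epithelial markers, a measure added after the data were seen, Ttr stood at 2.27, 2.26 and 1.39 in TRAP 9 p.m. libraries and at 1.07, 1.27 and 1.41 in TRAP 9 a.m. libraries (exact permutation p = 0.2). These last groups overlapped, through 9 p.m. replicate 3 and 9 a.m. replicate 3. Enpp2 made up most of the marker sum, so this measure is mainly a ratio of Ttr to Enpp2. Enpp2 averaged 17600 of 22710 FPKM in TRAP 9 p.m. and 16676 of 21710 FPKM in TRAP 9 a.m. libraries.

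Hepatocytes also make transthyretin, and their 11 markers were uneven among TRAP libraries. They summed to 13.3 to 237 FPKM in TRAP 9 p.m., 42.6 to 1744 in TRAP 9 a.m., 35.7 to 206 in supernatant 9 p.m. and 13.7 to 115 in supernatant 9 a.m. libraries. Between 2 and 9 of the 11 were at 0 in any 1 library, and Serpina1a was at 0 in all 12. The library at 1744 FPKM was TRAP 9 a.m. replicate 3. The next highest sums were 259 FPKM in TRAP 9 a.m. replicate 1 and 237 FPKM in TRAP 9 p.m. replicate 3. The part of these markers in the Ttr values was not tested.

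Below Ttr the levels, which FPKM gives per length, ran in the order Slco1c1, Ncor1, Thra, Rxra, Thrb, with means over the 12 libraries of 118, 70.8, 44.0, 24.1 and 13.4 FPKM. Ttr was 267 times Slco1c1. Slco1c1 was above Ncor1 in 11 of 12 libraries, Ncor1 above Thra in 10, Thra above Rxra in 9 and Rxra above Thrb in 9, so each of these neighbours changed places in at least 1 library. Dio2, Slc16a10 and Dio3 were listed at or near 0.

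**Figure D2:**
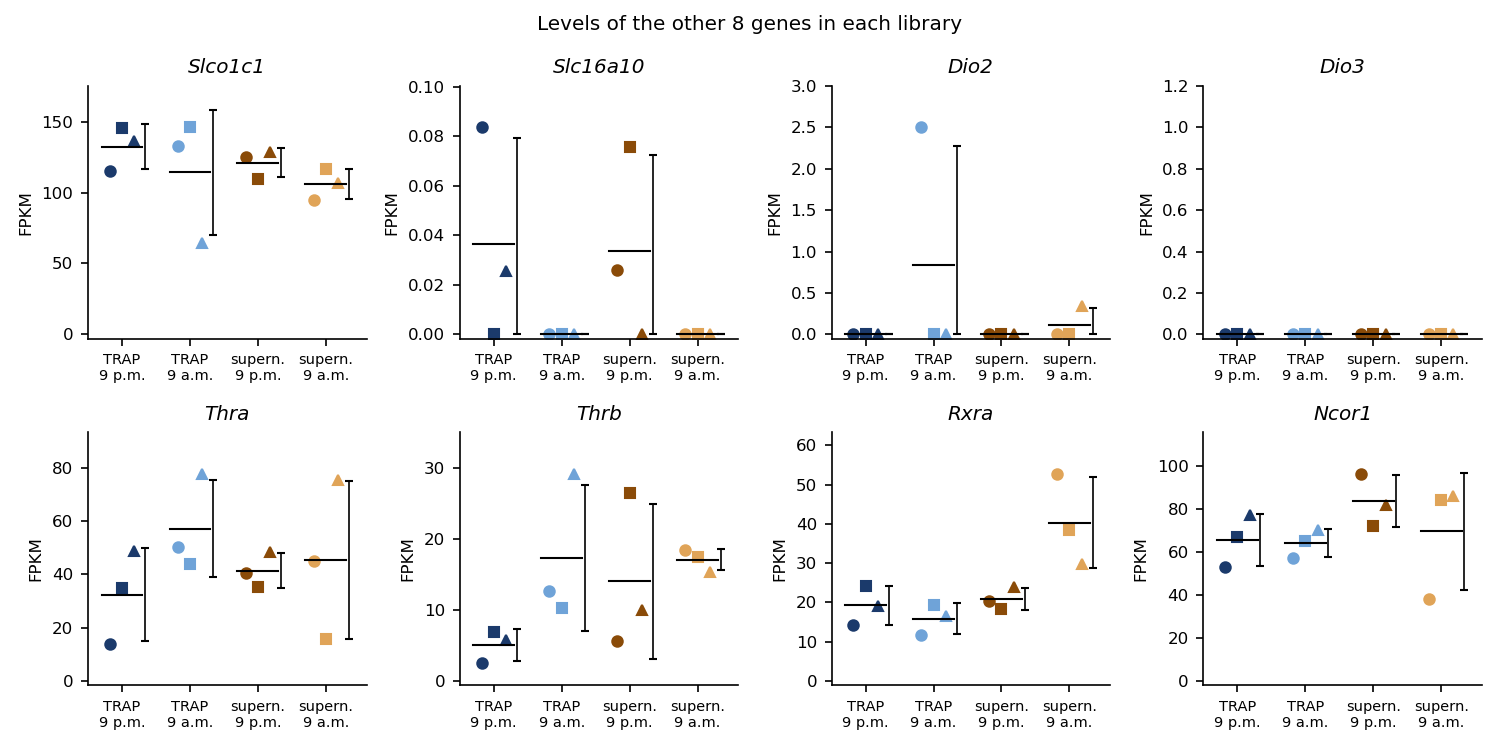
FPKM of the other 8 genes in each of the 12 libraries, by group, on linear axes that differ between panels. Circles, squares and triangles are replicates 1, 2 and 3, horizontal lines are means and bars are ± 1 SD (n = 3), ended at 0 where they would pass it. Slco1c1 and Ncor1 vary little between groups, Thrb has its lowest mean in TRAP 9 p.m. libraries (2.52 to 6.85 FPKM), Rxra is highest in supernatant 9 a.m. libraries (29.8 to 52.7 FPKM), and Dio3 is at 0 in all 12.

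Slco1c1 encodes OATP1C1, a transporter with high affinity for T4 that is found in brain capillaries and choroid plexus of rodents. It lies on chromosome 6 at 141524368 to 141570177 on the + strand. Its levels were 115, 146 and 137 FPKM in TRAP 9 p.m., 133, 146 and 64.1 in TRAP 9 a.m., 125, 110 and 128 in supernatant 9 p.m. and 94.9, 117 and 107 in supernatant 9 a.m. libraries. All groups compared overlapped, and the lowest level came from the shallow TRAP 9 a.m. replicate 3. The log2 fold change of 9 p.m. over 9 a.m. was 0.29 in TRAP (95% CI -0.57 to 1.15; adjusted p = 0.956) and turned to -0.08 without that library. It was 0.19 in supernatant (95% CI -0.45 to 0.83; adjusted p = 0.978). TRAP and supernatant differed by 0.12 at 9 p.m. and 0.03 at 9 a.m. on the log2 scale, which is less than the spread between replicates. The 8 markers of endothelial cells, the other site of this transporter, summed to 0.489 to 19.0 FPKM in TRAP and 10.4 to 25.1 FPKM in supernatant libraries, and their part in the Slco1c1 values was not tested.

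Slc16a10, which encodes MCT10, a carrier of T3 and aromatic amino acids, lies on chromosome 10 at 40033532 to 40142258 on the - strand. It was at 0.0836, 0 and 0.0255 FPKM in TRAP 9 p.m. libraries, at 0 in all TRAP 9 a.m. libraries, at 0.0260, 0.0756 and 0 FPKM in supernatant 9 p.m. libraries and at 0 in all supernatant 9 a.m. libraries. These traces were too low to test.

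Of the 14 further transporter genes, 8 were tested in each comparison and 0 passed. Slc3a2, the heavy chain shared by the LAT amino acid transporters, averaged 51.5 FPKM over the 12 libraries, and its light chain partner Slc7a8 (LAT2) averaged 39.4 FPKM. Slc7a8 stood at 6.46, 25.1 and 39.5 FPKM in TRAP 9 p.m. libraries and at 59.1, 48.5 and 57.0 FPKM in TRAP 9 a.m. libraries. These groups did not overlap, as was so for 2.93% of all genes in the lower direction, and the log2 fold change of -1.48 (95% CI -2.87 to -0.095) had an adjusted p of 0.941. Slc10a1, Slc17a4, Slco1a6 and Slco4c1 were at 0 in all libraries. In TRAP RNA the median log2 fold change of 9 p.m. over 9 a.m. was 0.23 over the 8 transporters, against 0.16 over all genes.

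Both deiodinase genes were listed at 0 in most libraries. Dio2 lies on chromosome 12 at 90724552 to 90738438 on the - strand and was at 2.50 FPKM in TRAP 9 a.m. replicate 1, at 0.347 FPKM in supernatant 9 a.m. replicate 3 and at 0 in the other 10 libraries. The 2.50 FPKM came from a library of 1.26 times the depth of the shallowest. Astrocytes are the main Dio2 source of the brain, and their 6 markers summed to 0 to 23.2 FPKM in TRAP and 8.85 to 53.8 FPKM in supernatant libraries; whether such cells gave the Dio2 reads was not tested. Dio2 shares 100 exonic bases with Gm26512 on the opposite strand. Dio3, on chromosome 12 at 110279068 to 110281097 on the + strand, was listed at 0 in all 12 libraries, as was Dio1, the deiodinase of liver and kidney. Since abundant genes were also listed at 0 in some libraries and depth is unknown, a low level of either cannot be told from absence.

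Of 8 genes for other steps of hormone metabolism and intracellular binding, 4 or 5 were tested, depending on the comparison, and 0 passed. Txnrd1, a selenoenzyme of redox control, had the highest mean, 39.2 FPKM. It stood at 50.2, 51.8 and 56.6 FPKM in TRAP 9 p.m. libraries and at 35.4, 44.8 and 6.30 FPKM in TRAP 9 a.m. libraries, the lowest in the shallow replicate 3. Secisbp2, which helps ribosomes insert selenocysteine into proteins such as the deiodinases, averaged 7.69 FPKM. It stood at 5.77, 7.14 and 0.682 FPKM in TRAP 9 p.m. libraries and at 19.3, 8.99 and 9.34 FPKM in TRAP 9 a.m. libraries. The TRAP groups did not overlap for Txnrd1, higher at 9 p.m. (5.7% of all genes), or for Secisbp2, lower at 9 p.m. (2.93% of all genes). Sult1a1, a sulfotransferase, averaged 6.44 FPKM and ranged from 0 to 24.6 FPKM among single libraries. Crym, the cytosolic T3-binding protein, averaged 0.695 FPKM and was not seen in TRAP RNA, and Iyd, which recovers iodide, was at 0.

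Thra encodes thyroid hormone receptor alpha and lies on chromosome 11 at 98740638 to 98769006 on the + strand. Its 3′ end overlaps Nr1d1, which encodes the clock repressor REV-ERB alpha from the opposite strand (98767932 to 98775333). The exons of the genes share 263 bases, from 98768157 to 98768419, or 5.70% of the exonic bases of Thra and 8.55% of those of Nr1d1. All 263 lie in coding sequence of Thra, and the overlap is known to fall in the alpha-2 splice form, which does not bind T3. The strand setting of the counting is not given in the sources used here, and without strand a read from this stretch fits both genes. To show this, 30 bases from the middle of the shared stretch are printed below, 5′ to 3′, in the sense of each gene; capitals mark shared bases, which is every base here. They lie at chr11:98768273-98768302 (GRCm38, read from GENCODE transcripts), on the + strand for Thra and the - strand for Nr1d1.
Thra: GGGTCCGCAGGTCCGGCAGCTTGAGCAGCA
Nr1d1: TGCTGCTCAAGCTGCCGGACCTGCGGACCC

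Thra levels were 13.7, 34.8 and 48.6 FPKM in TRAP 9 p.m. libraries and 50.1, 43.8 and 77.6 FPKM in TRAP 9 a.m. libraries. In supernatant libraries they were 40.5, 35.1 and 48.3 FPKM at 9 p.m. and 45.1, 15.7 and 75.2 FPKM at 9 a.m. The groups overlapped in both fractions, and within the supernatant 9 a.m. group alone the highest library was well over the lowest. The log2 fold change of 9 p.m. over 9 a.m. was -0.93 in TRAP (95% CI -2.13 to 0.27; adjusted p = 0.941) and 0.11 in supernatant (95% CI -1.09 to 1.31; adjusted p = 0.994). In supernatant the sign turned with a single library left out, to -0.50 without 9 a.m. replicate 2. Between fractions it was -0.50 at 9 p.m. and 0.54 at 9 a.m., with intervals that span 0 on both sides, and it was -0.07 at 9 a.m. without supernatant 9 a.m. replicate 2. Nr1d1 itself was lower than Thra in every library, at 1.24, 12.1 and 6.78 FPKM in TRAP 9 p.m., 16.7, 16.8 and 1.91 in TRAP 9 a.m., 8.21, 7.51 and 10.003 in supernatant 9 p.m. and 7.67, 7.95 and 30.5 in supernatant 9 a.m. libraries. Supernatant 9 a.m. replicate 3 held the highest Nr1d1 level, and also the highest Thra level of its fraction. TRAP 9 a.m. replicate 3 held the highest Thra level of all 12 libraries, with Nr1d1 at 1.91 FPKM. Over the 12 libraries Pearson r of Thra with Nr1d1 was 0.40 on the log2 scale. The part of shared reads in these levels was not tested.

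Thrb encodes thyroid hormone receptor beta and lies on chromosome 14 at 17660261 to 18038090 on the + strand. In TRAP RNA it was at 2.52, 6.85 and 5.70 FPKM at 9 p.m. and at 12.6, 10.3 and 29.2 FPKM at 9 a.m., with no overlap. In supernatant RNA it was at 5.59, 26.4 and 10.04 FPKM at 9 p.m. and at 18.4, 17.5 and 15.4 FPKM at 9 a.m., with overlap. Mean TRAP levels were 5.02 ± 2.24 FPKM at 9 p.m. and 17.4 ± 10.3 FPKM at 9 a.m. (SD, n = 3 each), a ratio of 0.289, and the log2 fold change on the log2(FPKM + 1) scale was -1.55 ± 0.85 (SE; 95% CI -3.42 to 0.32; adjusted p = 0.941). Of all genes tested, 2.93% were lower at 9 p.m. with no overlap in TRAP RNA. The high 29.2 FPKM came from the shallow TRAP 9 a.m. replicate 3, and the log2 fold change was -1.12 without it. In supernatant the log2 fold change was -0.52 (95% CI -2.05 to 1.012), and the difference between fractions in the time change was -1.03 (95% CI -3.18 to 1.12; adjusted p = 0.988). TRAP and supernatant differed by -1.14 at 9 p.m. (95% CI -3.08 to 0.79), and all 3 pools had less Thrb in TRAP than in supernatant, at -0.90, -1.80 and -0.72 on the log2 scale. At 9 a.m. the difference was -0.11, with 1 of 3 pools higher in TRAP. Thra exceeded Thrb in 11 of 12 libraries, and by 3.29 times in the means.

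Rxra encodes retinoid X receptor alpha, the partner that the receptors need to bind DNA well, and lies on chromosome 2 at 27676440 to 27762957 on the + strand. In TRAP RNA it was at 14.3, 24.3 and 19.2 FPKM at 9 p.m. and at 11.6, 19.3 and 16.6 FPKM at 9 a.m. In supernatant RNA it was at 20.5, 18.2 and 24.0 FPKM at 9 p.m. and at 52.7, 38.5 and 29.8 FPKM at 9 a.m. The supernatant 9 a.m. libraries stood above all 9 others. At 9 a.m. the mean was 15.8 ± 3.89 FPKM in TRAP and 40.3 ± 11.6 FPKM in supernatant (SD, n = 3 each), and the log2 fold change was -1.29 ± 0.55 (SE; 95% CI -2.47 to -0.10). Its p was 0.0364 before and 0.886 after adjustment over 10796 genes, so the difference did not pass. TRAP was lower in all 3 pools at 9 a.m., at -2.09, -0.96 and -0.81 on the log2 scale, and 6.8% of all genes were lower in TRAP with no overlap at that time. In supernatant the log2 fold change of 9 p.m. over 9 a.m. was -0.89 ± 0.46 (SE; 95% CI -1.91 to 0.13; adjusted p = 0.970), where 3.79% of all genes were lower with no overlap. Stroma markers, of which 8 were listed, summed to 13.3 to 33.3 FPKM in TRAP and 89.3 to 311 FPKM in supernatant at 9 a.m. At 9 p.m. they summed to 5.97 to 9.73 FPKM in TRAP and 131 to 178 FPKM in supernatant. Rxra averaged 19.2 FPKM in TRAP and 20.9 FPKM in supernatant at 9 p.m. The part of stroma in the Rxra values was not tested.

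**Figure D3:**
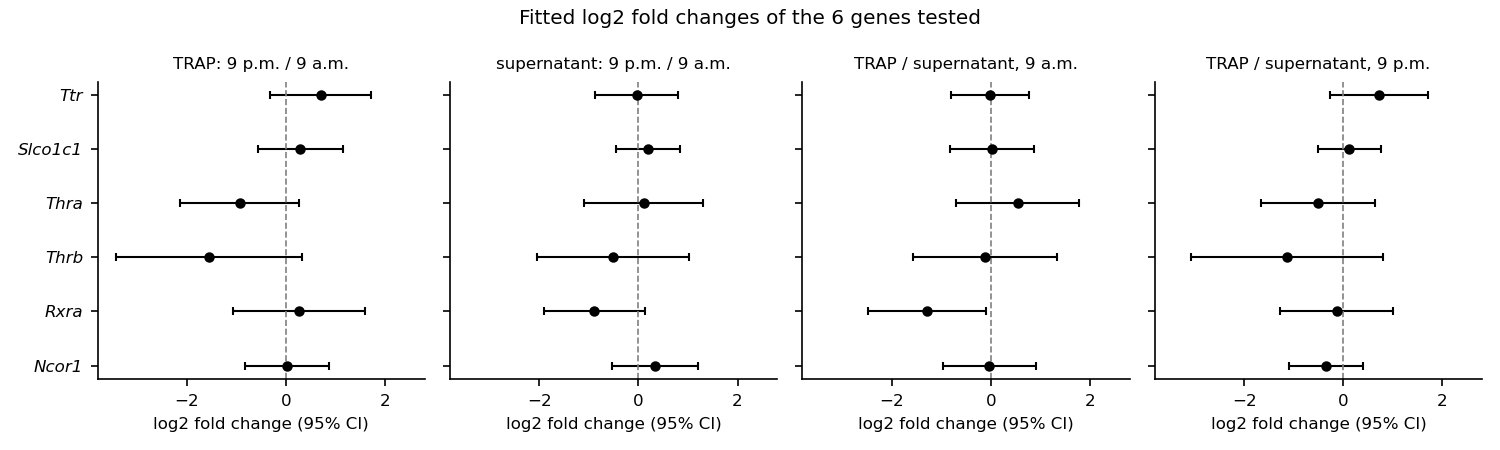
Log2 fold change with its 95% confidence interval from limma on log2(FPKM + 1) for the 6 genes tested, in 4 comparisons of 3 against 3 libraries; positive values are higher at 9 p.m. (left 2 panels) or in TRAP (right 2 panels). Of the 24 intervals drawn, 23 span 0; the exception is Rxra in TRAP against supernatant at 9 a.m. (-2.47 to -0.10), whose adjusted p was 0.886.

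Of 11 further receptors that pair with RXR or belong to its family, 6 to 8 were tested in a comparison and 0 passed. Nr1h2 (LXR beta, a sterol receptor) was the highest, at 18.8, 26.8 and 28.7 FPKM in TRAP 9 p.m. and 48.8, 34.8 and 92.9 FPKM in TRAP 9 a.m. libraries. These did not overlap, as was so for 2.93% of all genes in the lower direction, and the log2 fold change of -1.12 had an adjusted p of 0.941. The 92.9 FPKM came from the shallow TRAP 9 a.m. replicate 3. Rxrb averaged 17.8 FPKM and Rara, a retinoic acid receptor, 13.3 FPKM, while Rxrg was at 0 in all libraries. Rara averaged 9.69 and 7.34 FPKM in TRAP and 19.8 and 16.4 FPKM in supernatant (9 p.m. and 9 a.m. in each), and over both times its log2 fold change was -1.26 (adjusted p = 0.632).

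Ncor1 encodes the nuclear receptor corepressor that unliganded thyroid hormone receptors recruit, and lies on chromosome 11 at 62316426 to 62458541 on the - strand. Its levels were 53.0, 67.0 and 77.2 FPKM in TRAP 9 p.m. and 57.4, 65.2 and 70.2 FPKM in TRAP 9 a.m. libraries. In supernatant libraries they were 96.4, 72.4 and 82.0 FPKM at 9 p.m. and 38.4, 84.4 and 86.3 FPKM at 9 a.m. All groups overlapped, and 1 library, supernatant 9 a.m. replicate 1 at 38.4 FPKM, lay below the rest. The log2 fold change of 9 p.m. over 9 a.m. was 0.02 in TRAP (95% CI -0.82 to 0.86) and 0.34 in supernatant (95% CI -0.52 to 1.202), the supernatant value turning to -0.04 without that library. The TRAP value turned negative, to between -0.22 and -0.11, under each of 3 other scalings. Ncor1 shares 82 exonic bases with Pigl (mean 2.21 FPKM) and 1 with Ttc19 (mean 6.32 FPKM), both on the opposite strand.

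All 6 further genes of the corepressor complex were tested and 0 passed; 5 of the 6 were above 0 in all 12 libraries and 1 was listed at 0 in 1 library. Hdac3, the deacetylase of the complex, averaged 34.2 FPKM and Tbl1x, a scaffold subunit, 32.0 FPKM over the 12 libraries. Hdac3 stood at 16.5, 47.9 and 61.65 FPKM in TRAP 9 p.m. and 23.5, 34.8 and 0.181 FPKM in TRAP 9 a.m. libraries, with overlap and with the lowest level in the shallow TRAP 9 a.m. replicate 3. The median log2 fold change of the 6 was 0.24 in TRAP and -0.20 in supernatant for 9 p.m. against 9 a.m., beside 0.16 and 0.03 over all genes.

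Of the coactivators that liganded receptors recruit, all 7 listed were tested and 0 passed. Crebbp, a histone acetyltransferase, was at 53.2, 31.5 and 44.9 FPKM in TRAP 9 p.m. and 44.3, 49.3 and 41.9 in TRAP 9 a.m. libraries, and at 74.4, 55.4 and 74.95 in supernatant 9 p.m. and 63.5, 78.9 and 82.2 in supernatant 9 a.m. libraries. All 6 TRAP libraries lay below all 6 supernatant libraries, as did those of 0.798% of all genes, and over both times the log2 fold change was -0.69 (95% CI -1.20 to -0.18; adjusted p = 0.537). Kat2b averaged 39.2 FPKM and Ncoa1 32.6 FPKM. Over both times the median of the 7 was -0.21, beside -0.13 over all genes.

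Among 7 known targets of the receptors, 5 were tested in each comparison and 0 passed. Dbp, a transcription factor of the clock output, was at 138, 30.7 and 44.7 FPKM in TRAP 9 p.m. and 0, 11.7 and 79.2 FPKM in TRAP 9 a.m. libraries. In supernatant it was at 88.6, 24.9 and 22.9 FPKM at 9 p.m., and at 9 a.m. no library was above 0.215 FPKM. The supernatant groups did not overlap, as was so in the higher direction for 4.9% of all genes, and the log2 fold change of 5.16 (95% CI 2.97 to 7.35) had an adjusted p of 0.577 over 11075 genes. Klf9, a zinc finger factor that T3 induces in many tissues, averaged 52.6 FPKM in TRAP at 9 p.m. and 42.1 FPKM at 9 a.m., with overlap. Me1 (malic enzyme, a classical hepatic T3 target) was at 38.5, 31.0 and 43.7 FPKM in TRAP 9 p.m. and 22.8, 17.0 and 0.214 FPKM in TRAP 9 a.m. libraries. Its TRAP groups did not overlap (5.7% of all genes), with a log2 fold change of 2.25 and adjusted p = 0.941, and the library at 0.214 FPKM was the shallow replicate 3.

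Transthyretin also carries retinol in blood by binding its carrier Rbp4. Of 9 genes for retinol partners and for receptors that take transthyretin up, 4 to 6 were tested and 0 passed. Lrp1, a large endocytic receptor, averaged 155 FPKM and Stra6, the receptor for Rbp4, 37.1 FPKM. Stra6 was at 41.1, 29.0 and 31.3 FPKM in TRAP 9 p.m. and 56.5, 55.8 and 34.6 FPKM in TRAP 9 a.m. libraries, with overlap. Rbp4 itself averaged 4.61 FPKM and Lrp2 (megalin) 0.311 FPKM, far below Ttr.

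**Figure D4:**
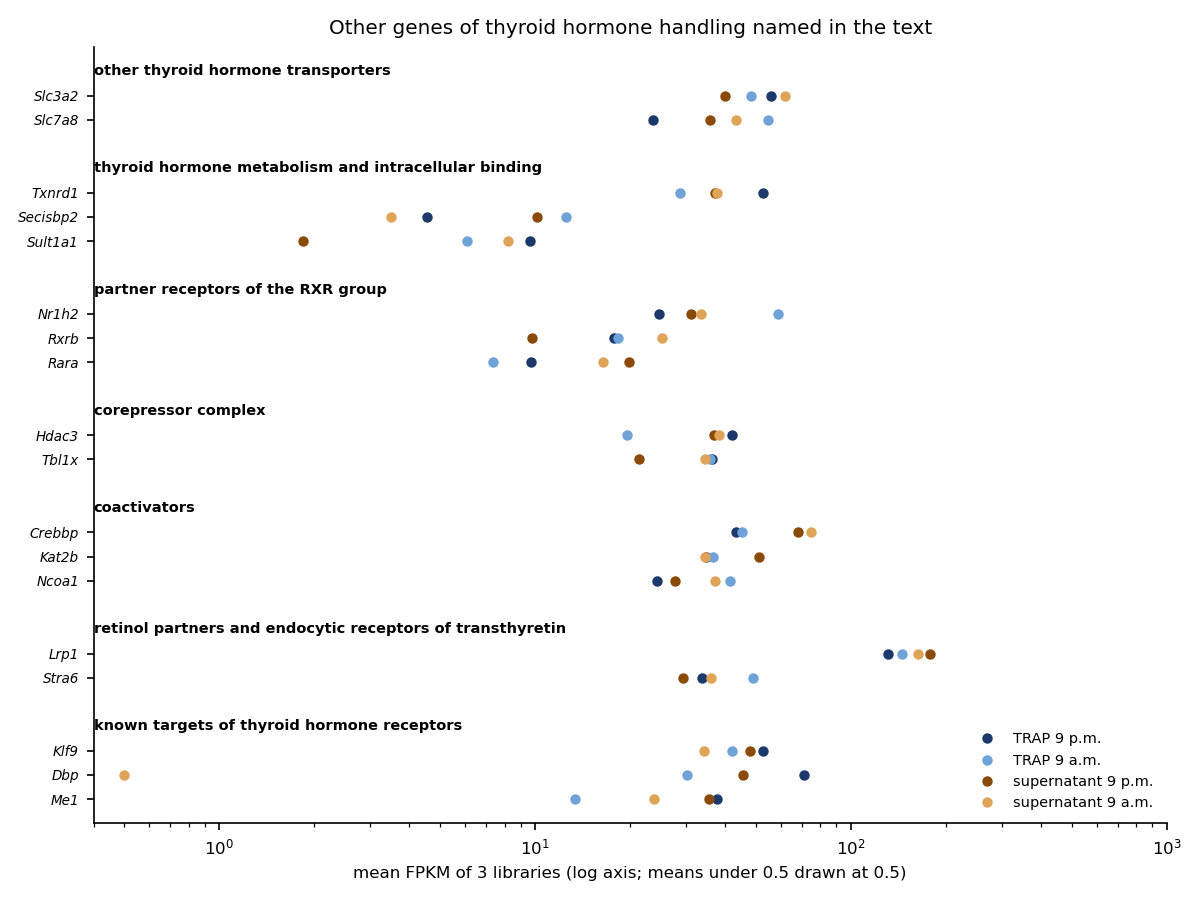
Mean FPKM of 3 libraries in each of the 4 groups, on a log axis, for 18 named genes of the 7 other lists; means under 0.5 are drawn at 0.5. Lrp1 is the highest (means of 131 to 178 FPKM), and Dbp in supernatant at 9 a.m. is the lowest point.

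Across the 6 members tested, 0 passed in any of the 6 comparisons. In limma 0% of all 10563 genes passed for 9 p.m. against 9 a.m. in TRAP, where 418 had p under 0.05 before adjustment and 0 of the 6 members did. The shares of all genes that passed were 0.00903% for the same contrast in supernatant, 0.0463% for TRAP against supernatant at 9 a.m., 0.0275% at 9 p.m., 0.108% over both times (0.0179% higher and 0.0896% lower in TRAP) and 0.00896% for the interaction. Over both times 12 of 11156 genes passed, and 6 with the pool as a block. Members with no overlap between groups numbered 1 higher and 1 lower of 6 in TRAP between times, 1 lower in supernatant between times, 0 higher and 1 lower in TRAP against supernatant at 9 a.m., where 3.25% of all genes were higher, and 1 higher at 9 p.m. The share of all genes with no overlap in either direction was 8.63, 8.7, 10.1 and 11.9% in these comparisons. Over both times 0 of 6 members had no overlap, against 1.03% of all genes.

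**Figure D5:**
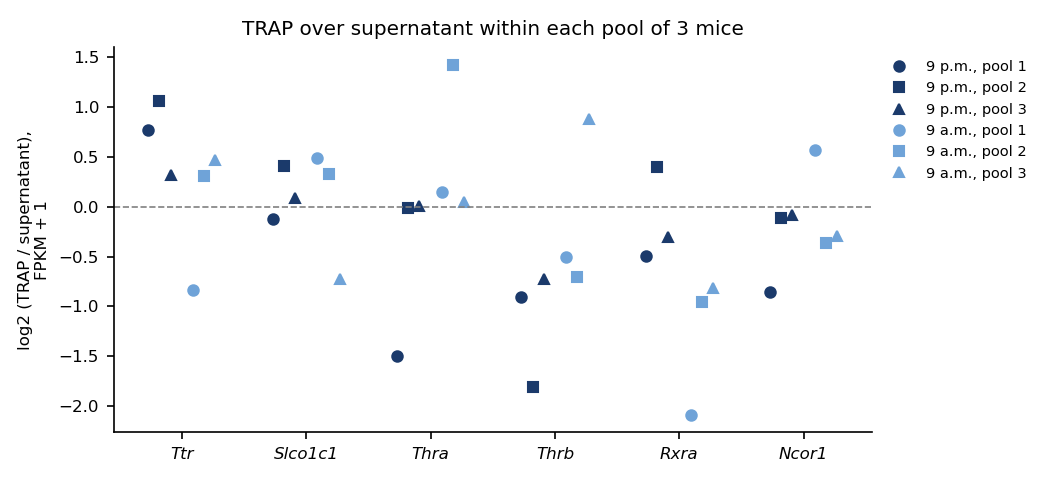
Log2 of TRAP over supernatant (FPKM + 1) within each pool of 3 mice, for the 6 genes tested; dark symbols are 9 p.m. pools and light symbols 9 a.m. pools, and numbers do not pair pools across times. Ttr is above 0 in all 3 pools at 9 p.m. (0.32 to 1.06) and in 2 of 3 at 9 a.m., Rxra is below 0 in all 3 pools at 9 a.m., and Thrb is below 0 in all 3 at 9 p.m.

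Within pools, log2 of TRAP over supernatant for Ttr was 0.76, 1.06 and 0.32 at 9 p.m. and -0.84, 0.31 and 0.47 at 9 a.m. The means were 0.71 ± 0.38 at 9 p.m. and -0.02 ± 0.71 at 9 a.m. (SD, n = 3 pools each). Slco1c1 was higher in TRAP in 2 of 3 pools at each time. Thra was higher in TRAP in 1 of 3 pools at 9 p.m. and in 3 of 3 at 9 a.m., where 1 pool gave 1.42 and the others 0.15 and 0.05. Ncor1 was higher in TRAP in 0 of 3 pools at 9 p.m. and in 1 of 3 at 9 a.m. No member thus had the same direction in all 6 pools.

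The genes whose pattern over the 12 libraries was most like that of Ttr, among 7821 genes with a mean FPKM above 5, were Nub1 (Pearson r = 0.90 on the log2 scale), Atp5j (0.88), Gsta4 (0.87), Ndufb10 (0.86) and Atp5f1 (0.85). They were picked for that likeness, over libraries that also share depth, so the coefficients are a description. Atp5j and Atp5f1 encode subunits of the mitochondrial ATP synthase, Ndufb10 a subunit of respiratory complex I and Gsta4 a glutathione transferase. Atp5j averaged 1407 ± 574 FPKM in TRAP 9 p.m. and 709 ± 222 FPKM in TRAP 9 a.m. libraries, and 563 ± 128 and 623 ± 170 FPKM in supernatant at 9 p.m. and 9 a.m. (SD, n = 3 each). The most like genes were Cog4 and Ppil2 for Slco1c1 (both 0.93), Kidins220 and Ern1 for Thra (both 0.90), Tbcd (0.92) and Tsn (0.87) for Thrb, Bsdc1 (0.89) and 1300002E11Rik (0.88) for Rxra, and Dlg5 (0.92) and Repin1 (0.91) for Ncor1. The level of 1300002E11Rik was 96.3 ± 44.9 FPKM in supernatant 9 a.m. libraries, with means of 1.47 to 9.77 FPKM in the other groups.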

How the data were processed

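The authors aligned reads with STAR 2.4.0 to mm10 and deposited FPKM from the Cufflinks suite, in 1 table of 12 libraries made by SMARTer Pico with ribodepletion. Strand setting and annotation release: not given in the sources used here. Cre-negative controls were not analysed here. From 24354 rows, 27 names turned into dates by a spreadsheet were left out. FPKM are not counts, so log2(FPKM + 1) was tested with limma 3.58.1 (R 4.3.3; eBayes with trend) on genes with a mean FPKM above 1, with Benjamini-Hochberg adjustment over all. A gene passed at an adjusted p below 0.05 with a log2 change larger than 0.4 in size (times) or 0.3 (fractions; no minimum for the interaction). The main design has no block, and fits of each comparison used its own libraries. Ttr levels and shares had exact two-sided permutation tests. The limma script was tested on simulated data. TRAP and supernatant libraries of 1 time were taken to share a pool by number. Their deviations correlated between -0.075 and -0.014. Named genes were the 9, genes overlapping them, the 3 of highest mean FPKM in each list, any list gene that passed, and the most alike (5 for Ttr, 2 for each other gene above FPKM 1); all other genes named (Crym, Rbp4, Lrp2, Enpp2, Rn45s and genes at 0) were chosen after their values were seen. A few genes that this rule names are not reported here. The members and lists were chosen with earlier results of these data known. Exons came from GENCODE M21 (GRCm38, the build named mm10).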

Additional observations from a re-analysis of the deposited data

How the results depend on the processing

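No member passed in any of 64 alternative fits or 48 fits with 1 library left out, and the smallest adjusted p of a member was 0.557 (Ttr, TRAP against supernatant at 9 p.m., robust empirical Bayes). The log2 fold change kept its sign in 366 of 384 alternative values and in 259 of 288 with a library left out; the cause of the others was not tested. Rescaling to equal sums outside small RNAs gave -0.22 for Ncor1 between times in TRAP, 0.058 for Ttr and 0.046 for Ncor1 between fractions at 9 a.m., -0.066 for Slco1c1 at 9 p.m., -0.034 for Thra over both times and -0.17 for the Slco1c1 interaction. Upper quartile scaling gave -0.11 for Ncor1 between times in TRAP, 0.12 for Ttr, 0.023 for Thrb and 0.11 for Ncor1 at 9 a.m., -0.045 for the Slco1c1 interaction, and Ttr level differences of 2345.1 FPKM at 9 a.m. and 9906.4 FPKM over both times (p = 0.045, exact permutation). Quantile normalization gave -0.13 for Ncor1 between times in TRAP, 0.0082 for Ncor1 at 9 a.m., -0.29 for Ttr and -0.090 for Slco1c1 at 9 p.m., -0.42 for Ttr and -0.025 for Slco1c1 over both times, and -0.12 for the Slco1c1 interaction. The Ttr values among these depend only on how many small RNA rows ranked above Ttr. With all rows in the sum the Ttr share differed by 0.157 points between times in supernatant, -1.34 between fractions at 9 a.m. and -0.464 over both times. Across alternatives the median of all genes between times in TRAP moved between -0.04 and 0.22, against 0.16.

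With 1 library left out, signs turned in these ranges of log2 fold change. Between times in TRAP, Slco1c1 ran from -0.081 to 0.51 and Ncor1 from -0.10 to 0.16. Between times in supernatant, Ttr ran from -0.21 to 0.19, Thra from -0.50 to 0.60 and Ncor1 from -0.038 to 0.54. Between fractions at 9 a.m., Ttr ran from -0.19 to 0.21, Slco1c1 from -0.19 to 0.40, Thra from -0.071 to 1.02, Thrb from -0.54 to 0.17 and Ncor1 from -0.41 to 0.17. At 9 p.m., Thra ran from -0.87 to 0.0068 and Rxra from -0.31 to 0.052. Over both times, Slco1c1 ran from -0.016 to 0.24 and Thra from -0.31 to 0.30. For the interaction, Slco1c1 ran from -0.27 to 0.31 and Ncor1 from -0.52 to 0.058. The Ttr level difference ran from -4637.6 to 3354.4 FPKM between times in supernatant and from -4048.5 to 3943.6 between fractions at 9 a.m. The Ttr share difference ran from -0.865 to 0.731 points between times in supernatant, from -0.468 to 1.13 between fractions at 9 a.m. and from 1.34 to 2.46 over both times. The exact permutation p of the last was 0.035 without TRAP 9 a.m. replicate 1 and 0.04 without supernatant 9 a.m. replicate 1, against 0.085 with all libraries. Leaving out TRAP 9 a.m. replicate 2 took the genes that passed between times in TRAP to 5, against 0.

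With the pool as a replicate block the Ttr log2 fold change of 0.71 at 9 p.m. had an adjusted p of 0.882. Its level difference of 17734 FPKM had p = 0.25 by an exact permutation of signs, the smallest that 3 pools allow. Over both times, an exact permutation of signs within pools gave p = 0.25 for the Ttr level and 0.156 for its share. The other permutation tests between fractions did not use the pairing by pool. Numbers shared across times marked no shared animals, since each pool was dissected at a single time. Deviations of same-numbered libraries across times correlated between -0.007 and 0.104. Those of libraries taken to share a pool correlated between -0.075 and -0.014. The correlations thus give no support to the pairing by pool, which rests on the labels alone. A block on the numbers across times left Ttr in TRAP at 0.70 with an adjusted p of 0.893. The block changed no other call of a member; the interaction had 2 genes that passed with it, against 1. Absolute depth is unknown, so no counting error can be given for single values.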

Other observations

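Genes by which the thyroid gland makes hormone were looked at as a contrast to genes that handle it. Of 9 such genes, 1 had a mean FPKM above 1. That gene was Slc5a5, the sodium iodide symporter, at 55.2, 22.2 and 11.5 FPKM in TRAP 9 p.m. libraries and 11.1, 9.35 and 5.27 FPKM in TRAP 9 a.m. libraries. In supernatant it was at 20.4, 2.83 and 15.4 FPKM at 9 p.m. and at 4.36, 22.4 and 19.2 FPKM at 9 a.m. The TRAP groups did not overlap, by a narrow margin and as was so in this direction for 5.7% of all genes, and 9 p.m. replicate 1 was well above the others. Pax8, Foxe1, Duox2 and Duoxa2 were at 0 in all 12 libraries, and Nkx2-1, Tg and Tshr were above 0 in 1 library each.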
